A study of Homo sapiens with 6 samples.

Results

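The ribosomal DNA arrays are the tandem repeats on the short arms of the 5 acrocentric human chromosomes, 13, 14, 15, 21 and 22. A peak was taken as a member when it overlapped, by at least 1 bp, an array interval on the T2T-CHM13 assembly. The intervals run from 5.7 to 9.4 Mb on chromosome 13, 2.0 to 2.9 Mb on chromosome 14, 2.5 to 4.8 Mb on chromosome 15, 3.1 to 5.7 Mb on chromosome 21 and 4.7 to 5.8 Mb on chromosome 22, which is 10.6 Mb in all. Of 945863 peaks in the 4 deposited lists, 3038 were members: 600 of 181215 (control 1), 777 of 235865 (control 2), 883 of 330265 (siORCA 1) and 778 of 198518 (siORCA 2).

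Each repeat unit of ribosomal DNA holds the gene for the precursor of the 18S, 5.8S and 28S ribosomal RNAs, transcribed by RNA polymerase I in the nucleolus, and a long intergenic spacer. Replication of these arrays starts at origins within the repeats, and replication initiation in human ribosomal DNA has been placed largely in the spacer. Only a part of the copies is transcribed in a cell, and active and silent copies differ in chromatin. ORCA, encoded by LRWD1, binds the origin recognition complex, which marks sites where replication can start, and is known to bind heterochromatin.

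Nascent-strand sequencing (NS-seq) selects short, newly made DNA by size and by exonuclease digestion. The cells were U2OS, an osteosarcoma line, transfected with the control siRNA gl3 (labelled Gl3; 2 samples, control 1 and control 2) or with an siRNA against ORCA (2 samples, siORCA 1 and siORCA 2). A genomic DNA sample of each transfection is labelled as well, and these 2 were not analysed here. The comparison asks whether origin activity differs after siORCA. The labels do not state that the samples came from separate cultures, so the spread between them may be technical, and a DNA assay gives no check of the ORCA level.

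The files hold peaks and no read counts, so depth is unknown, and the lists cover 58.5, 67.1, 86.2 and 64.0 Mb in control 1, control 2, siORCA 1 and siORCA 2. The copies of the repeat are near-identical, a read from 1 copy can be placed on another, and the sources used here do not say how such reads were treated. Values of copies are therefore not independent, they are no replicates, and the number of ribosomal DNA copies in U2OS was not measured. If the caller used the genomic samples as background, background and group cannot be told apart, since each group has 1 genomic sample. Single values were compared by a two-sided exact permutation test, called the exact test below, which cannot go below p = 0.33 with 2 against 2 samples, and the lowest value is 0.542 after adjustment over 13 comparisons, those over all members and those of units and fold at the 3 sites. Comparisons by array were adjusted over the 5 arrays, and the others printed with a p were not adjusted.

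Peaks covered a small part of the arrays, and slightly more of it in siORCA. Covered length was 242.9 kb (control 1), 207.5 kb (control 2), 276.5 kb (siORCA 1) and 243.4 kb (siORCA 2). As a percent of array length this was 2.12 ± 0.236% in control and 2.45 ± 0.220% in siORCA (mean ± SD of 2 samples; exact test p = 0.33). The groups did not overlap, but siORCA 2, at 2.297%, lay barely above control 1, at 2.292%. With lists of equal covered length the difference was 0.243 points and the groups overlapped (exact test p = 0.667). Member peaks numbered 689 ± 125 in control and 831 ± 74.2 in siORCA (mean ± SD of 2 samples; exact test p = 0.33), where siORCA 2 had 1 peak more than control 2. The difference in number, 142 peaks, was 53.5 without control 1, 89.5 without siORCA 1 and 230.5 without control 2. The difference in covered percent, 0.328 points, was 0.161 without control 2, 0.172 without siORCA 1 and 0.495 without control 1.

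Relative to the rest of each list the arrays took no larger part in siORCA. They held 0.415% of all covered length (control 1), 0.309% (control 2), 0.321% (siORCA 1) and 0.380% (siORCA 2). The groups overlapped (0.362 ± 0.0749% in control, 0.350 ± 0.0420% in siORCA, mean ± SD of 2 samples; exact test p = 1). The density of covered length in the arrays was 1.22, 0.909, 0.943 and 1.12 times that of the span of all chromosomes in the same order of samples. The direction of both measures turned with lists of equal covered length, without control 1, and without siORCA 1. Against the 1 Mb of flank on each side of every array, the density was 3.43 times as high (control 1), 1.58 (control 2), 1.33 (siORCA 1) and 4.09 (siORCA 2). The arrays were thus denser than their flanks in each list, by an amount that did not follow the groups (2.51 ± 1.31 in control, 2.71 ± 1.95 in siORCA, mean ± SD of 2 samples; exact test p = 1). The direction of this last difference turned without control 2 (−0.720) and without siORCA 2 (−1.18). Flank cover itself ran from 0.561% in siORCA 2 to 1.96% in siORCA 1, a wider range than array cover.

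All 5 arrays gave like values. Covered percent in control 1 and control 2 was 2.07 and 1.78 on chromosome 13, 1.69 and 2.01 on chromosome 14, 2.44 and 1.93 on chromosome 15, 2.64 and 2.22 on chromosome 21 and 2.41 and 1.95 on chromosome 22. In siORCA 1 and siORCA 2 it was 2.45 and 2.07, 2.55 and 2.14, 2.64 and 2.37, 2.82 and 2.58, and 2.60 and 2.40 in the same order of arrays. siORCA 1 had the highest cover of the 4 lists on each array. The groups were apart in covered percent only on chromosome 14 (exact test p = 0.33, or 0.667 when adjusted over 5 arrays by Benjamini-Hochberg).

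In the fit of 1 Mb windows over the genome, no call was made among the 14 windows that overlap an array. With 2 samples per group and SEs from 0.22 to 0.40, this does not show that the groups were alike. The fit compared log2 of each window's share of covered length. None passed (0 of 14 at a limma adjusted p of 0.05, lowest adjusted p 0.930, and 0 at an unadjusted p under 0.05), beside 0.0812% of 2464 windows called above control and 0% below. Their log2 differences ran from −0.19 (SE 0.22), at 3 to 4 Mb on chromosome 21, to 0.16 (SE 0.34), at 4 to 5 Mb on chromosome 22. These windows, called array windows, also hold sequence outside the array where they reach past its ends. In siORCA 1 the window at 5 to 6 Mb on chromosome 22 held 33.4 kb of covered length. The whole array on that chromosome held 28.6 kb. The window values are therefore not those of the arrays alone. The median over the 14 was −0.04, with 4 above 0, and 0.06, with 10 above 0, when each list was centred on its median window, so the direction depends on the scaling. It was 0.12, with 12 above 0, without control 1, −0.22, with 5 above 0, without control 2, and −0.21 with the stricter list, in which a −log10 q of 3 or more was required. Both siORCA shares lay above both control shares in 2 of the 14, at 2 to 3 Mb on chromosome 14 and 5 to 6 Mb on chromosome 21. Over the genome this holds in 10.8% of windows, and the opposite, which no array window showed (0 of 14), in 19.9%.

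Peaks recurred along every array at the spacing of the repeat unit. The autocorrelation of covered length, in 500 bp bins and searched between 20 and 70 kb, was highest between 40 and 50 kb in 20 of 20 combinations of array and sample, at lags from 43.5 to 47 kb. The flanks reached their maximum in that range in 4 of 40 combinations. The lag, a distance on the assembly, was the same in all 4 samples of an array. It was 47 kb on chromosome 13, 44.5 kb on chromosomes 14 and 21, 45 kb on chromosome 15 and 43.5 kb on chromosome 22. The height of the maximum was 0.611 and 0.663 in the controls and 0.840 and 0.777 in siORCA on chromosome 13. It was lowest on chromosome 15, from 0.218 to 0.298, where a lag of 42.5 kb came close behind.

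**Figure D1:**
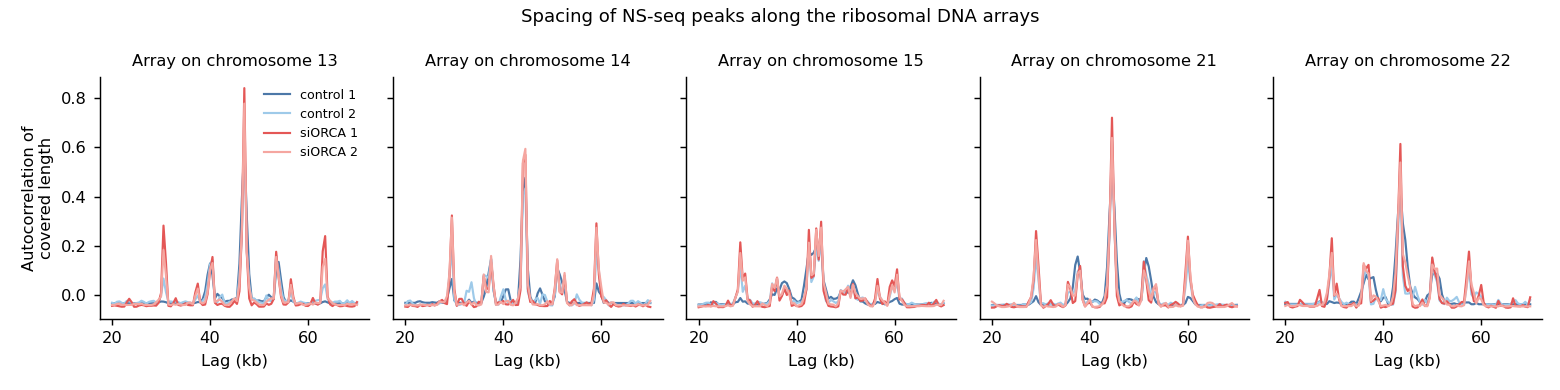
Autocorrelation of the length covered by peaks (vertical axis) against the lag in kb (horizontal axis) for the 5 arrays, with 1 line for each of the 4 samples. The highest point of every line lies between 43.5 and 47 kb, and on chromosome 15 the maximum is split into several lags.

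To place peaks within the unit, a chain of recurring control peaks spaced 40 to 50 kb apart was built in each array, choosing the chain with the greatest covered length. The chains gave 223 anchors, 77 on chromosome 13, 17 on chromosome 14, 51 on chromosome 15, 56 on chromosome 21 and 22 on chromosome 22. The mean step was 46.9 ± 0.478 kb on chromosome 13 (SD over 76 steps), 44.2 ± 0.335 kb on chromosome 14 (16 steps), 43.8 ± 1.06 kb on chromosome 15 (50 steps), 44.5 ± 0.363 kb on chromosome 21 (55 steps) and 43.7 ± 0.653 kb on chromosome 22 (21 steps). Chains built from the siORCA lists instead gave 225 anchors, of which 223 lay within 1 kb of a control anchor.

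Within the unit, peaks gathered at 3 places, called here site 1 (the anchor), site 2 and site 3. Site 2 lay about 7 kb and site 3 about 14 to 17 kb beyond site 1 in the direction of rising coordinates. No gene annotation of this assembly was used, so the sites are not assigned to the rRNA gene or to the spacer. The windows that define them (1.5 kb to either side of the anchor, 5.5 to 8.5 kb and 13 to 17.5 kb beyond it) were set after the profile was seen. Site 1 held 1094 members, site 2 924 and site 3 646, while 297 lay elsewhere in a unit and 77 in no unit. The sites took 88.3% of members (control 1), 85.1% (control 2), 83.8% (siORCA 1) and 94.2% (siORCA 2), and between 90.4% and 96.1% of member length.

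**Figure D2:**
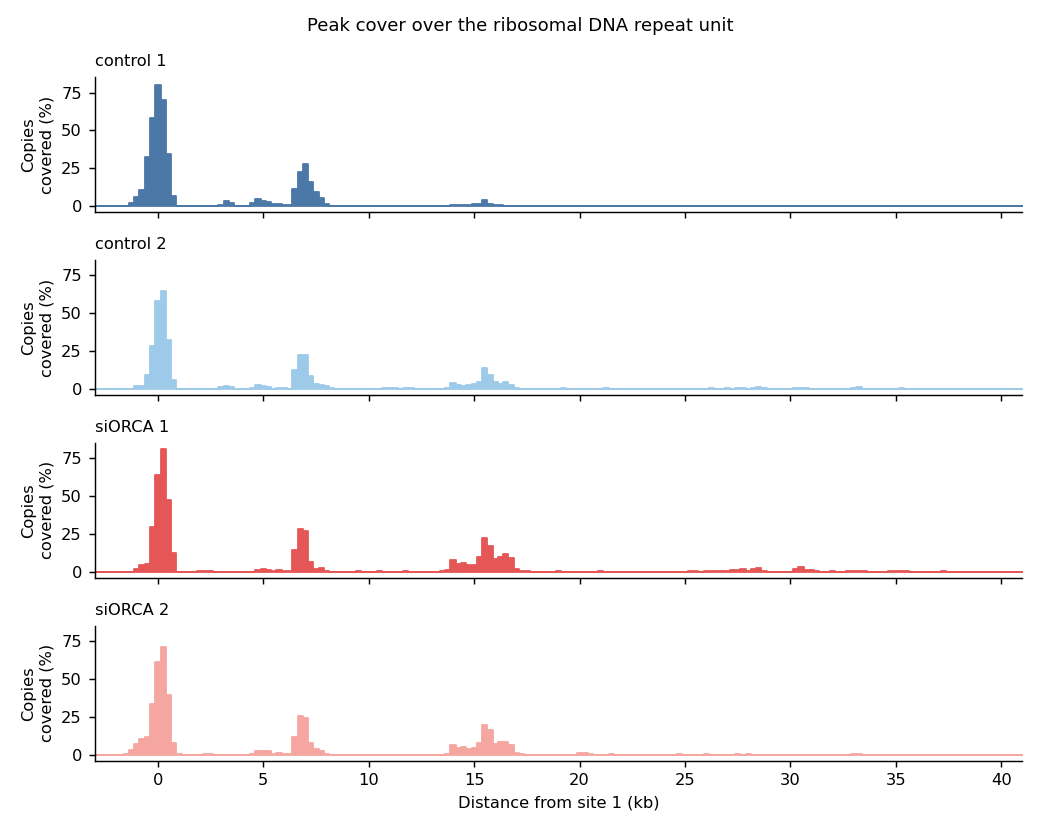
Share of the 223 repeat units covered by a peak, in percent (vertical axis), in 250 bp steps of distance from site 1 in kb (horizontal axis), with 1 panel per sample. Each panel shows the cover at site 1 and, about 7 kb on, at site 2, while cover at 14 to 17 kb is lowest in control 1 and highest in the siORCA samples.

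The second unit of the chromosome 14 array shows the pattern. Site 1 was listed in all 4 samples, at 2152608 to 2152862 (control 1, 5.68-fold), 2152712 to 2152831 (control 2, 6.12-fold), 2152608 to 2153152 (siORCA 1, 9.06-fold) and 2152610 to 2153148 (siORCA 2, 7.71-fold). These folds, like all below, are the authors' enrichment over the caller's background. The lists were called separately at unknown depth, so folds set side by side between samples describe the lists. Site 2 and site 3 were not listed there in control 1. Site 3 was listed from 2167541 to 2167742 in control 2 at 4.07-fold, from 2167509 to 2167771 in siORCA 1 at 14-fold and from 2167508 to 2167766 in siORCA 2 at 6.39-fold. Its borders in the siORCA lists enclosed the control 2 peak.

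Site 1 was listed most often. A peak was listed there in 223 of 223 units in each of the 4 lists; the anchors were taken from control, so at least 1 control list had to hold it. In the stricter list the control mean was 91.7% of units against 100% for siORCA, with no overlap of the groups. It was also the widest site, with a median width of 543 bp (control 1), 482 bp (control 2), 576 bp (siORCA 1) and 538 bp (siORCA 2). The chain was chosen for the greatest covered length of control peaks. Width and listing of site 1 in control therefore follow in part from that choice. The median fold enrichment was 4.72 (control 1), 5.11 (control 2), 9.97 (siORCA 1) and 7.62 (siORCA 2). Both siORCA values lay above both control values (4.91 ± 0.272 against 8.80 ± 1.66, mean ± SD of 2 samples; exact test p = 0.33). Covered length per unit did not follow the groups, at 751 bp (control 1), 507 bp (control 2), 617 bp (siORCA 1) and 610 bp (siORCA 2).

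Site 2 was narrower and the weakest of the 3 in siORCA. A peak was listed in 177 units (control 1), 203 (control 2), 222 (siORCA 1) and 209 (siORCA 2). As a percent of units this was 85.2 ± 8.24 in control and 96.6 ± 4.12 in siORCA (mean ± SD of 2 samples; exact test p = 0.33), with siORCA 2 close to control 2. Without control 1 the difference fell from 11.4 to 5.61 percentage points, and with lists of equal covered length to 6.73 points, with overlap of the groups. With the stricter list it rose to 41.5 points (47.1% of units in control, 88.6% in siORCA). More of each siORCA list met that limit over the whole genome, as given under site 3, and the part of this in the rise was not tested. The median fold was 3.94 (control 1), 4.29 (control 2), 5.31 (siORCA 1) and 5.02 (siORCA 2), apart by group but by less than at the other sites. Median widths were 178, 166, 192 and 172 bp in the same order.

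Site 3 differed most between the samples. Its window was set after the profile was seen, with the siORCA lists included. The tests and intervals for this site therefore compare a place chosen with the compared lists in view. In control, mean cover was 3.42% at 16 kb and 1.25% at 14 kb from the anchor, against 2.46% at 5 kb, which was not made a site. In siORCA it was 11.8%, 4.06% and 1.41% in the same order. A peak was listed in 38 of 223 units (control 1), 156 (control 2), 219 (siORCA 1) and 219 (siORCA 2). These are 17.0% (95% Wilson interval 12.7 to 22.5%), 69.96% (63.6 to 75.6%), 98.2% (95.5 to 99.3%) and 98.2% (95.5 to 99.3%) of units; the intervals cover counting error only and treat linked copies as independent. Both siORCA samples lay above both controls (43.5 ± 37.4% against 98.2 ± 0%, mean ± SD of 2 samples; exact test p = 0.33), and the controls lay far apart. Control 1 sets much of the size: without it the difference fell from 54.7 to 28.3 percentage points. It was 56.7 points in lists of equal covered length and 82.1 points with the stricter list. Over the whole genome, too, more of each siORCA list met the stricter limit, 64.6% and 56.8% of peaks against 35.9% and 41.5% for control, and the part of this in the site 3 difference was not tested.

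The 4 units with no site 3 in any list were each the last unit of an array, on chromosomes 13, 14, 15 and 22. By array, site 3 was listed in 6.49% of units in control 1 and 55.8% in control 2 on chromosome 13, against 98.7% in both siORCA samples. On chromosome 21 it was 25% and 83.9% in the controls and 100% in both siORCA samples. On chromosomes 14, 15 and 22 the control values ran from 9.09% to 29.4% in control 1 and from 68.6% to 82.4% in control 2, and the siORCA values from 94.1% to 98.0%. Every array therefore had the same order of samples, with control 1 lowest and control 2 next. The arrays share near-identical sequence and are no separate observations of this order.

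**Figure D3:**
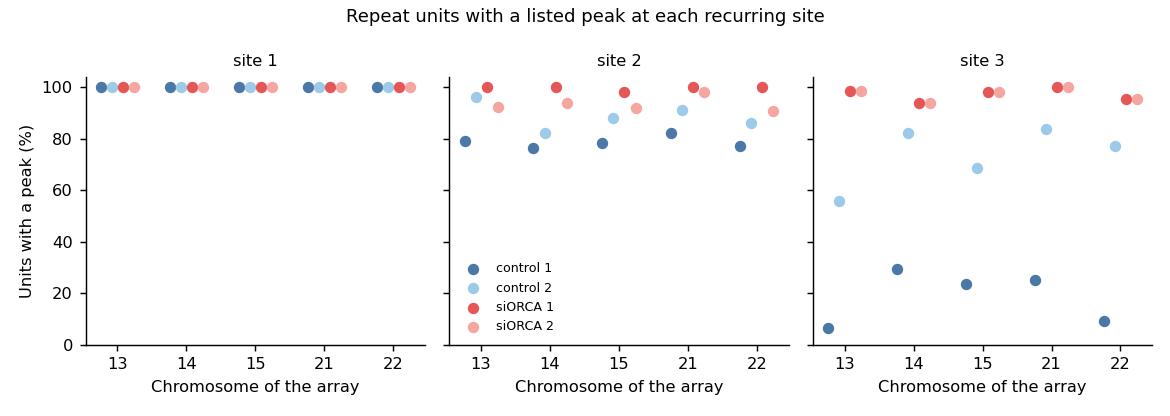
Percent of repeat units with a listed peak (vertical axis) at site 1, site 2 and site 3 for the arrays on chromosomes 13, 14, 15, 21 and 22 (horizontal axis), with 1 point per sample. At site 3 control 1 lies between 6.49% and 29.4% and both siORCA samples at 94.1% or more on all 5 arrays.

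Strength at site 3 followed the same order. The median fold was 3.39 (control 1), 4.07 (control 2), 13.5 (siORCA 1) and 7.23 (siORCA 2), with group values of 3.73 ± 0.476 in control, 10.4 ± 4.43 in siORCA, mean ± SD of 2 samples; exact test p = 0.33. siORCA 1 stood above the other siORCA sample by nearly as much as the groups differ, and without it the difference fell from 6.63 to 3.50. Peaks were also wider, with medians of 162 and 190 bp in the controls and 287 and 240 bp in siORCA. Within each list, the median site 3 peak exceeded 26.1% of all peaks by fold (control 1), 55.1% (control 2), 95.6% (siORCA 1) and 92.0% (siORCA 2). These are places within lists of different length and describe the lists. Only peaks that were listed enter these medians, and most units of control 1 have none.

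**Figure D4:**
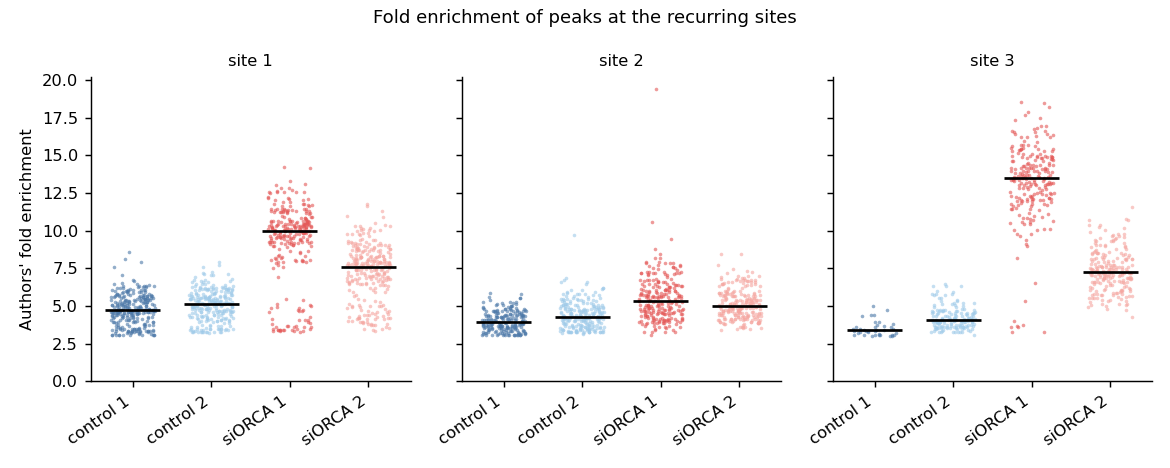
The authors' fold enrichment (vertical axis, linear) of every listed peak at site 1, site 2 and site 3, by sample, with a bar at the median. At site 3 the medians are 3.39 and 4.07 in the controls and 13.5 and 7.23 in siORCA, whereas at site 2 all medians lie between 3.94 and 5.31.

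The balance of the sites within a unit also differed. Where a unit had both sites in a list, the fold at site 3 over that at site 1 had a median of 0.690 (control 1, 38 units), 0.793 (control 2, 156 units), 1.32 (siORCA 1, 219 units) and 0.920 (siORCA 2, 219 units). Site 3 was the stronger in 1, 25, 206 and 77 of these units, respectively. siORCA 1 was thus the sample in which most units had site 3 above site 1, and siORCA 2 lay between it and the controls. The fold at site 2 over site 1 went the other way, with medians of 0.819 and 0.850 in the controls and 0.535 and 0.643 in siORCA. Only listed peaks enter these ratios, and the lowest listed site 2 fold was 3.04 (control 1), 3.16 (control 2), 3.05 (siORCA 1) and 3.42 (siORCA 2). This floor lies nearer the site 1 folds in control than in siORCA, and its part in the ratios was not tested. The median fold of site 2 was itself higher in siORCA, by less than that of site 1. A peak at each of the 3 sites was listed in 30 units (control 1), 140 (control 2), 219 (siORCA 1) and 209 (siORCA 2).

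**Figure D5:**
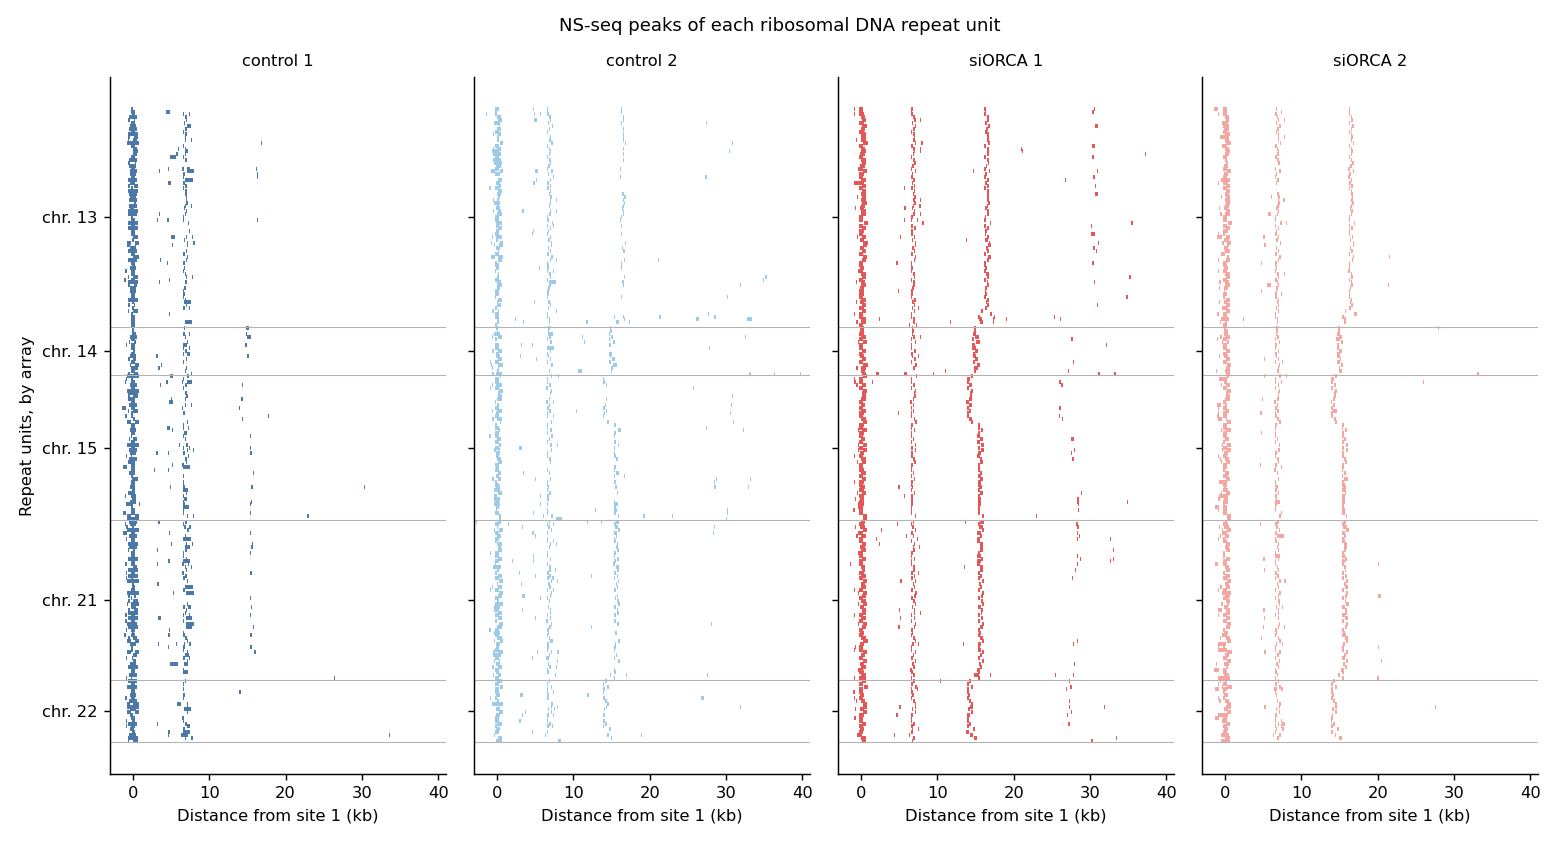
Every peak of the 223 repeat units, with units stacked by array (vertical axis) and distance from site 1 in kb (horizontal axis), in 1 panel per sample. The column at site 3 is nearly empty in control 1, partly filled in control 2 and filled in both siORCA samples, and its distance from site 1 changes within the array on chromosome 15.

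On the assembly, the spacing of the sites differed between arrays, and the variation lay beyond site 2. These distances are those of the assembled copies, and a read from 1 copy can be placed on another. The spacing in the arrays of U2OS was not measured. From site 1 to site 2 the median distance was between 6.61 and 6.64 kb on all 5 arrays. From site 2 to site 3 it was 7.39 kb on chromosome 22, 8.15 kb on chromosome 14, 8.80 kb on chromosome 15, 8.82 kb on chromosome 21 and 9.65 kb on chromosome 13. From site 3 to the next site 1 it ran from 28.5 kb on chromosome 15 to 30.7 kb on chromosome 13. The array on chromosome 15 split into 2 runs, a first of 17 units with site 3 at a median of 14 kb from site 1 and a second of 33 units at 15.4 kb. On chromosome 22, 18 units had 14 kb and 3 had 14.7 kb, and on chromosome 13, 72 had 16.3 kb and 4 had 15.4 kb. The distance classes behind these counts were set after the map was seen.

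Other places in the unit held few peaks. At 3 kb from the anchor 14 peaks were listed (control 1), 13 (control 2), 1 (siORCA 1) and 0 (siORCA 2). At 5 kb, on the near side of site 2, there were 31, 23, 13 and 20. At 28 kb there were 0, 8, 23 and 2, and at 31 kb 0, 7, 13 and 0. Most of these were in siORCA 1, the longest list, and most of the rest in control 2, the next longest. Those lists also had the most members outside the 3 sites of a unit, with 56 (control 1), 98 (control 2), 110 (siORCA 1) and 33 (siORCA 2). Between 18 and 40 kb from the anchor, peaks covered 0.0167% of the units (control 1), 0.145% (control 2), 0.282% (siORCA 1) and 0.0439% (siORCA 2). This long stretch of the unit was thus almost free of listed peaks in all 4 samples.

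Over all members, fold enrichment was higher in siORCA. The median was 4.14 (control 1), 4.31 (control 2), 8.04 (siORCA 1) and 6.57 (siORCA 2), with group values of 4.23 ± 0.118 against 7.31 ± 1.03, mean ± SD of 2 samples; exact test p = 0.33. The medians of the whole lists were 3.82, 3.94, 4.51 and 4.21 in the same order and moved far less. Of regions merged over the lists, 60.1% were in 1 list only over the genome and 35.7% in the arrays. The medians of members and of whole lists thus cover unlike mixtures. Each of the 5 arrays had both siORCA medians above both control medians. Of the members, 7.33% (control 1), 8.11% (control 2), 44.1% (siORCA 1) and 45.6% (siORCA 2) lay in the top 10% of their own list by fold. The median width of members was 234.5 and 191 bp in the controls and 255 and 230 bp in siORCA, and the groups overlapped (213 ± 30.8 against 243 ± 17.7 bp, mean ± SD of 2 samples; exact test p = 0.667).

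The same was seen unit by unit and region by region. After touching or overlapping peaks of all lists were merged, 410 regions of the arrays were present in all 4 lists. In 330 of them (80.5%) both siORCA folds were above both control folds, where over all 57130 such regions of the genome this holds in 40.3%. The opposite was seen in 3 of the 410 (0.732%), against 5.43% over the genome. The median fold in the 410 regions was 4.59 and 4.86 in the controls and 9.43 and 6.96 in siORCA, and over the genome 4.57 and 4.78 against 6.73 and 5.31. Among units with the site listed in all 4 samples, both siORCA folds exceeded both control folds in 217 of 223 units at site 1, 86 of 155 at site 2 and 33 of 34 at site 3. A test of the arrays against the rest of the genome was not made, because the copies share reads.

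The arrays held 1190 merged regions, of which 34.5% were in all 4 lists and 35.7% in 1 list only, against 10.7% and 60.1% over the genome. Regions in both siORCA lists and neither control numbered 85 (7.14%, against 5.44% over the genome), and those in both control lists and neither siORCA list 17 (1.43%, against 1.67%). Of the 85, 60 were at site 3, and of the 17 none were (0), where site 3 held 231 of all 1190 regions. The window of site 3 was set with the siORCA lists seen. With the stricter list the counts of 85 and 17 became 204 and 2. Over the whole genome 64.6% and 56.8% of siORCA peaks met that limit, against 35.9% and 41.5% of control peaks. The part of this in the changed counts was not tested. With a sample left out the counts of 85 and 17 ran from 121 to 254 (highest without control 2) and from 20 to 163 (highest without control 1). No share over the genome is given for these alternatives, so they are not read as particular to the arrays. A further 168 of the 1190 regions were in every list but control 1, and 28 were in every list but control 2. Over the genome these counts were 20912 and 23263 of 535576 regions, so there the order of the 2 controls was the reverse. At the level of units, site 3 was listed in both siORCA samples and neither control in 59 units, in every sample but control 1 in 122, and in both controls and neither siORCA sample in 0.

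The widest regions in all 4 lists lay at 3250158 to 3251843 on chromosome 21, 6341670 to 6343346 on chromosome 13 and 5148372 to 5150039 on chromosome 22, from 1668 to 1686 bp. In each a control list covered the most, with 1611 bp in control 1, 1634 bp in control 1 and 1494 bp in control 2. The widest regions of siORCA alone were at 5365289 to 5365951 on chromosome 22, 5777951 to 5778575 on chromosome 13 and 4271196 to 4271691 on chromosome 15. The widest of the controls alone were at 4986832 to 4987445 and 5164371 to 5164915 on chromosome 21 and 8032667 to 8033195 on chromosome 13. These regions were at most 663 bp wide, so regions of 1 group were short.

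In control 1 the highest folds were 11.8 at 2876678 to 2876910 on chromosome 14, 8.58 at 5967011 to 5967249 and 8.15 at 6248912 to 6249365 on chromosome 13. In control 2 they were 9.71 and 7.91 at 4666807 to 4667052 and 3237951 to 3238207 on chromosome 15, and 7.71 at 5628592 to 5628743 on chromosome 22. In siORCA 1 they were 19.4 at 5725720 to 5725915 on chromosome 22, and 18.6 and 18.5 at 4781567 to 4781871 and 4559651 to 4559911 on chromosome 21. In siORCA 2 they were 11.8 at 8362468 to 8363005 on chromosome 13, 11.6 at 3385627 to 3385877 on chromosome 21 and 11.6 at 5510578 to 5510833 on chromosome 22. The strongest member of control 1 lay in no unit, and that of siORCA 1 at site 2. By fold within their lists the strongest members ranked 2307, 4264, 6248 and 3209. The widest members measured 1634 bp (control 1), 1494 bp (control 2), 1225 bp (siORCA 1) and 1652 bp (siORCA 2).

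At the borders of the intervals, the outermost members began between 0.626 and 12.8 kb inside the left edge, and the nearest peaks outside ended 0.491 to 30.8 kb from it. At the right edges the last members ended 0 to 45.8 kb inside, and the next peaks began 0.073 to 16.3 kb outside. The member at the right edge on chromosome 22 reaches beyond 5.8 Mb. The chains of anchors begin further in, for example at 2108443 on chromosome 14 and 4802415 on chromosome 22, so some members at the edges fall in no unit. Such members without a unit numbered 14 (control 1), 18 (control 2), 33 (siORCA 1) and 12 (siORCA 2).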

How the data were processed

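NS-seq was applied to 2 control and 2 siORCA samples of U2OS cells. Per the submitters' processing notes BWA, SAMtools and MACS2 were used with the T2T-CHM13 build; the sources used here do not give versions, settings or the handling of multiply placed reads. The authors deposited 1 broad peak list per sample, with a fold enrichment (a linear ratio), −log10 p, −log10 q and a score per peak; the lowest −log10 q is 1.30. Folds describe peaks within a list; medians and folds were also set side by side between lists, which were called separately at unknown depth.

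Arrays, lists and tests were chosen with earlier results of these data known. Covered length was clipped to the intervals. Single values were compared by two-sided exact permutation tests. Windows of 1 Mb with at least 5 kb covered on average were compared with limma 3.58.1 in R 4.3.3 (lmFit, eBayes with trend, Benjamini-Hochberg) on log2 of the window's share of the list, with a pseudocount of 1000 bp added to covered length; folds on this scale understate sparse windows. The window step was tested on simulated data for siORCA against control over 2464 windows (90% of log2 changes of 1 recovered, 13 false among 158 calls), the spacing step on arrays of known period. Anchors came from control peaks merged over 500 bp; a unit ran from 3 kb before its anchor to 3 kb before the next. Named regions were the 5 arrays, all array windows, in each list the 3 strongest peaks and the widest, the edge peaks, the 3 widest merged regions of each kind and the unit positions highest in control. Other steps used Python 3.11.15, numpy 2.4.6 and pandas 2.3.3. No genome sequence was used, so no sequence is printed. Alternatives were lists limited to a −log10 q of 3 or more (the stricter list), lists of equal covered length, each replicate left out, intervals shrunk by 100 kb, other bins, overlaps, windows, pseudocount, filter, centring and a replicate block.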

Additional observations from a re-analysis of the deposited data

How the results depend on the processing

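The median period was 44 kb with bins of 1000 bp and did not move under the other alternatives, and the mean for siORCA stayed above that for control in fold at each site and in units with site 2 and site 3. With lists of equal length the groups overlapped in covered percent and in units with site 2. Lists of equal covered length reversed the share of covered length (0.0440 percentage points) and the density over the genome (0.129). With 1 sample left out, the share ran from −0.0647 to 0.0412 points, the density over the genome from −0.190 to 0.121 and that over the flanks from −1.18 to 1.59; the cause was not tested. With the stricter list the median width turned to −110.25 bp, 204 regions were gained and 2 lost, and the differences grew to 359.5 peaks, 0.890 points of cover, 41.5 points of units with site 2 and 82.1 with site 3. More of each siORCA list met the stricter limit over the whole genome, and the part of this in these values was not tested. Merging over 1 kb left 7 lost. With 1 sample left out, 121 to 254 regions were gained and 20 to 163 lost, where 1 list fewer has to hold or to lack the region. For the 14 array windows the count of limma calls was 0 under every alternative, also with the replicate number as a block (0 of 14, lowest adjusted p 0.998). Deviations of same-numbered samples correlated at −0.458 over 2464 windows; with the crossed block, chosen after seeing the data, limma called 0 array windows and 4 in all. Median centring moved the median log2 difference of the array windows from −0.04 to 0.06, and lists of equal length moved it to 0.14. Lists of equal length, left-out samples and siORCA anchors for the site values were also chosen after seeing the data. Depth is unknown, so an unlisted site may lie below what a list can show.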
